A study of Homo sapiens with 9 samples.

Results

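Leukocyte immunoglobulin-like receptors (LILRs) were followed in THP-1, a line of human monocytic leukaemia cells, given ectosomes of Huh7 hepatoma cells. The 8 genes LILRB1, LILRB2, LILRB3, LILRB4, LILRA1, LILRA2, LILRA5 and LILRA6 were taken by symbol from the deposited count table of 30000 rows. They were chosen by name and with earlier results of these data known. LILRA4, LILRB5 and the pseudogenes LILRP1 and LILRP2 are the 4 further rows with a LILR symbol, and are described only beside them. Ectosomes are membrane vesicles shed from the cell surface. The 9 RNA-seq libraries formed 3 groups of 3: THP-1 cells given ectosomes labelled PKM2_KD, THP-1 cells given ectosomes labelled Scramble, and control THP-1 cells without ectosomes. The PKM2_KD label stands under shRNA and was read as ectosomes of Huh7 cells in which the pyruvate kinase isoform PKM2 was knocked down, with the scramble shRNA as its counterpart. Neither the ectosome dose nor the time of exposure is stated in the labels, which also do not say that replicates were grown apart, so that p-values measure only how these libraries spread, which may be technical.

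LILRs are surface receptors of monocytes, macrophages, dendritic cells and some lymphocytes. The LILRB members carry inhibitory tyrosine motifs in their cytoplasmic tails and recruit the phosphatases encoded by PTPN6 and PTPN11, while the LILRA members have short tails and signal through the Fc receptor gamma chain, encoded by FCER1G. Several LILRs bind HLA class I molecules, and the genes lie side by side in the leukocyte receptor complex.

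Libraries held 17744587 to 23864381 counts, and 18437 rows passed a filter on low counts and were tested. Control replicate 3 stood apart: the chi-square per degree of freedom of its counts was 43.6 and 40.1 against the other controls, where every other pair of replicates of a group gave 2.44 to 6.50. All 12 THP-1 and monocyte markers had reads in every group, their summed level running from 1500 to 1720 CPM with PKM2-knockdown ectosomes, 784 to 856 CPM with scramble ectosomes and 1900 to 2650 CPM in controls (CPM, counts scaled to a common library size with TMM factors). The largest parts of the control sum were AZU1 and ELANE (1015 and 491 CPM). They stood at 255 and 83.3 CPM with PKM2-knockdown ectosomes and 79.4 and 49.9 CPM with scramble ectosomes. At adjusted p under 0.05, 2 markers (SPI1 and CSF1R) were higher and 8 lower with scramble ectosomes against control, beside 34.6% and 33.2% of all rows. With PKM2-knockdown ectosomes against control 4 were higher and 5 lower, beside 27.0% and 26.7%. With PKM2-knockdown against scramble ectosomes 9 were higher and 0 lower (median log2 fold change 1.34), beside 31.4% and 30.3%. Of 13 hepatocyte markers 6 had a row. Their sum was 41.3 to 47.9 CPM with PKM2-knockdown ectosomes, 5.99 to 7.11 CPM with scramble ectosomes and 3.37 to 8.09 CPM in controls, most of the PKM2-knockdown value being SERPINA1 (37.4 CPM). TTR had no read with PKM2-knockdown ectosomes and in controls, and the other 7 markers, AFP and APOB among them, were not analysed here. All 4 fibroblast markers had reads in every group, summing to 16.6 to 20.9 CPM with PKM2-knockdown ectosomes, 2.78 to 4.69 CPM with scramble ectosomes and 2.29 to 4.25 CPM in controls, with DCN at 11.3, 0.529 and 0.151 CPM in that order of groups. T-cell markers (2 of 5 with a row, CD3D, CD3G and CD8A not analysed here, and CD3E with no read in controls) summed to 8.98 to 9.75 CPM with PKM2-knockdown ectosomes, 17 to 18.4 CPM with scramble ectosomes and 1.88 to 5.54 CPM in controls. The part of these markers in the results below was not tested. In bulk RNA, fewer cells with a transcript and less of it per cell cannot be told apart.

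The 8 genes lie on chromosome 19 (GRCh38) between 54216278 and 54670359, a span of 454.1 kb. LILRB3 (54216278 to 54223506), LILRA6 (54236592 to 54242791), LILRB2 (54273821 to 54281184) and LILRA5 (54307070 to 54313139) are on the minus strand. LILRA2 (54572920 to 54590287), LILRA1 (54593582 to 54602090), LILRB1 (54617158 to 54637528) and LILRB4 (54643889 to 54670359) are on the plus strand. Members resemble each other, so reads of one could have been counted for another or dropped. Of all stretches of 100 bases in the annotated transcripts of a member, the share that also occurs in a transcript of another gene was 12% for LILRB3, 8.7% for LILRA6, 7.9% for LILRB1 and 3.7% for LILRB2, and 0% for LILRA1 and LILRA5. With stretches of 50 bases it was 27.2% for LILRB3, 23.4% for LILRA6, 21.6% for LILRB1, 14.1% for LILRB2, 5.3% for LILRA1 and 3.5% for LILRA5, and the read length is not known here. LILRB1 and LILRB2 shared such stretches with each other, at 8.6% of those of LILRB1 and 11.5% of those of LILRB2. At 100 bases the main partner of LILRA6 was LILRB3, whose extracellular part is nearly the same. For LILRA2 (13.1%) the main partner was AC245036.5 and for LILRB4 (10.7%) the pseudogene VN1R105P, both annotated over their exons.

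RefSeq (GRCh38.p14) gave windows from 250 bases before to 50 bases after a transcription start for 7 of the 8 genes, 13 windows in all, LILRA6 having none. They are shown because LILRA1, LILRB1 and LILRB2 each have a window that is nearly the same in these genes, beside other windows that differ more. These genes were higher with PKM2-knockdown than with scramble ectosomes, and the likeness was noticed after their values were seen. The 3 genes did not move alike in the other comparisons: with scramble ectosomes against control LILRA1 was lower and LILRB1 and LILRB2 higher, and with PKM2-knockdown ectosomes against control LILRA1 was not called. For these 3 genes, and for LILRA2 and LILRB3 as a contrast, the window with most shared bases is given, or the first of equals, 5′ to 3′ on the gene's strand. Capitals mark words of 15 bases found in windows of at least 3 of the genes.
LILRA1, chr19:54593382-54593681, plus strand: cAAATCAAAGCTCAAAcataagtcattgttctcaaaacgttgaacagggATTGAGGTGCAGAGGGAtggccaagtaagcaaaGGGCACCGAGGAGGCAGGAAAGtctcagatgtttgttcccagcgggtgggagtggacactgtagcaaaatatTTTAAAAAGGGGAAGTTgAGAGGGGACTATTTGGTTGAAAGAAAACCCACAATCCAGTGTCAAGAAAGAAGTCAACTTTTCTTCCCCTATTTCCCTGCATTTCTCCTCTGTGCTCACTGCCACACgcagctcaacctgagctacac
LILRB1, chr19:54630234-54630533, plus strand: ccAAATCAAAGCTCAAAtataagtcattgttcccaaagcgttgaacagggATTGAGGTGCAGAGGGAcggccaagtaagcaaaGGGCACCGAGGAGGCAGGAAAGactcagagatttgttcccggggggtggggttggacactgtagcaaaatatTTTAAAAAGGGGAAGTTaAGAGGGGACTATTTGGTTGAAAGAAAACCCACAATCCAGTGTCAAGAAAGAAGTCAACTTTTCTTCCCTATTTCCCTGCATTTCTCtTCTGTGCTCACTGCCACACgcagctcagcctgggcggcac
LILRB2, chr19:54281061-54281360, minus strand: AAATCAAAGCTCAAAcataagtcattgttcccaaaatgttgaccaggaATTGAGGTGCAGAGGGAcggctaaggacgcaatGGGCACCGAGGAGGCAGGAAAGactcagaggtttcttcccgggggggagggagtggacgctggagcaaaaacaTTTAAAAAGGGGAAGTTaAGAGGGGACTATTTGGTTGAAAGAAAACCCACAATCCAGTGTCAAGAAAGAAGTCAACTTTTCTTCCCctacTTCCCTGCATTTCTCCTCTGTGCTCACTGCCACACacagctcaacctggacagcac
LILRA2, chr19:54573540-54573839, plus strand: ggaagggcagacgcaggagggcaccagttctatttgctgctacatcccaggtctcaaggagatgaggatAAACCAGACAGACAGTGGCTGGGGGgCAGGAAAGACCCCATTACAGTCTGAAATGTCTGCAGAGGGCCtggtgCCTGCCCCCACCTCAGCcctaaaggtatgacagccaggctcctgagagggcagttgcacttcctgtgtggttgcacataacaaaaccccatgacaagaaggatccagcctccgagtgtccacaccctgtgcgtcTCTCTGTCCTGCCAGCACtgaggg
LILRB3, chr19:54222958-54223257, minus strand: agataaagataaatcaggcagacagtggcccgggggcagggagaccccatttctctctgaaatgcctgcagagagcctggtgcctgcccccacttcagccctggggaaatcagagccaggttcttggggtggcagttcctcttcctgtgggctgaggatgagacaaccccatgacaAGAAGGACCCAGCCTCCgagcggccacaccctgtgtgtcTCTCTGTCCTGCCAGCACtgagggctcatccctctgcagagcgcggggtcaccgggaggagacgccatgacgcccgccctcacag

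In a global alignment the LILRA1 and LILRB1 windows were 93.7% identical, and each was 90.4% identical to that of LILRB2. The LILRA5 window was 69.6%, 69.2% and 68.4% identical to those of LILRB1, LILRA1 and LILRB2. With no filter LILRA5 had an edgeR adjusted p of 0.444 with PKM2-knockdown against scramble ectosomes. Another window of LILRA1 and another of LILRB2 were 75.8% and 76.2% identical to windows of LILRA2, which was lower in that comparison. The LILRB1 window from 54616879 to 54617178 had 0 bases in capitals. It was 46.2% identical to the printed window of LILRA1 and 47.5% identical to that of LILRB2. Capitals cover 178, 176 and 174 of the 300 bases in the printed windows of LILRA1, LILRB1 and LILRB2, against 102 in LILRA2 and 35 in LILRB3. They cover 37 in the LILRB4 window and 32 in the LILRA5 window, which are not printed. Capitals need a word in at least 3 genes, so 3 near-identical windows gain them by the rule itself. The run that follows was sought as the longest one common to the windows of LILRA1, LILRB1 and LILRB2. A run of 68 bases, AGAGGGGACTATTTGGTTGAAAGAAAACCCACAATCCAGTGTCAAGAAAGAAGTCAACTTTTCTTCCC, which begins 78 bases before the start in LILRA1 and LILRB2 and 77 bases before it in LILRB1, was found on either strand in 4 of 35116 RefSeq windows, all of these 3 genes. The word CTGAAATGTCTGCAG is in the LILRA2 window printed and in another window of LILRB2, genes that moved in opposite directions. It stood in 6 of the 35116 windows, those of LILRA1, LILRA2, LILRB2, LILRB4 and LILRB5. The letters GAGGAA, a core of the box bound by the myeloid factor PU.1, were found, with both strands searched, in a window of LILRB1, LILRB3, LILRB4 and LILRA5, and in 27.9% of all windows. TTCNNNGAA, bound by STAT factors, was found for LILRB2 and in 7.66% of all windows, and TGANTCA, bound by AP-1, for LILRB1 and in 7.71%. The matches in LILRB1 (GAGGAA and TGANTCA) and LILRB2 (TTCNNNGAA) were in windows other than those printed. The shares refer to single windows, while a gene with several windows has more room for a match. An interferon response element, searched only as paired GAAA with a fixed gap between the copies, was in no window of the 7 genes and in 3.57% of all windows. Adjoining copies of GAAA with no gap, which the run above holds, were not searched. Which of these starts the cells used was not measured.

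LILRB4 was by far the most abundant member in every library. Per kb of annotated exon, the scale used to compare genes, it stood at 8.95 ± 0.431 CPM per kb with PKM2-knockdown ectosomes, 9.52 ± 0.407 with scramble ectosomes and 13.2 ± 0.736 in controls (SD, n = 3 each). This was 62.0%, 66.6% and 76.9% of the summed level of the 8 genes. The exon length is the union over all annotated transcripts, and which of these the cells used was not measured. The orders given here depend on that scale. In plain CPM with scramble ectosomes LILRA2 (5.63) stood above LILRB3 (3.71) and LILRA6 (3.38). The order below LILRB4 differed between the groups. With PKM2-knockdown ectosomes came LILRB1 (1.94 CPM per kb) and LILRB2 (1.48), then LILRA6 (0.658) and LILRB3 (0.625), then LILRA1 (0.323), LILRA2 (0.300) and LILRA5 (0.163). Here the ranges of LILRA6 and LILRB3, of LILRA1 and LILRA2, and of LILRA2 and LILRA5 overlapped. With scramble ectosomes the order was LILRA6 (1.24 CPM per kb), LILRA2 (1.05), LILRB3 (0.994), LILRB2 (0.862), LILRB1 (0.331), LILRA5 (0.259) and LILRA1 (0.0320). Each of the first 4 overlapped its neighbour, as did LILRB1 and LILRA5. In controls LILRA2 (2.93 CPM per kb) came next to LILRB4, followed by LILRB2 (0.487), and below these LILRA1, LILRB1, LILRB3, LILRA6 and LILRA5 (0.219 down to 0.0202) overlapped from each to the next.

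**Figure D1:**
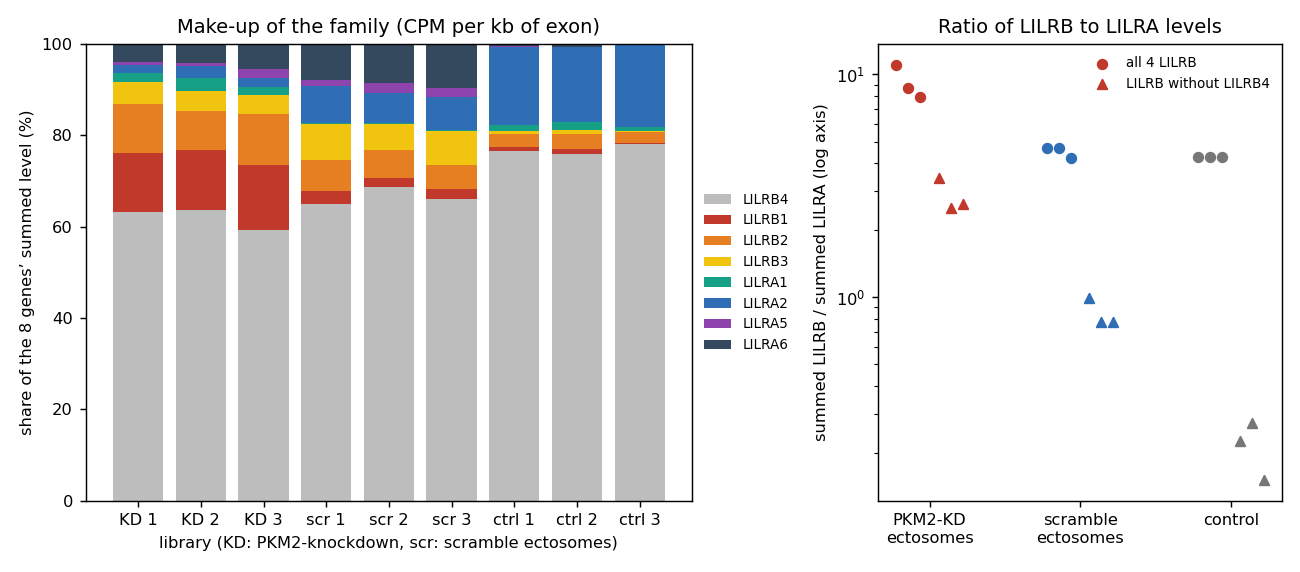
Left: share (%) of each LILR gene in the summed level of the 8 genes, in CPM per kb of exon, for each of the 9 libraries. Right: summed LILRB level over summed LILRA level in each library on a log axis, with all 4 LILRB genes (circles) and without LILRB4 (triangles). The grey LILRB4 block is largest in every library, and the triangles do not overlap between groups, lying between 2.51 and 3.44 with PKM2-knockdown ectosomes, 0.774 and 0.995 with scramble ectosomes and 0.151 and 0.273 in controls.

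The ratio of summed LILRB to summed LILRA levels per kb was 7.90 to 11.1 with PKM2-knockdown ectosomes, 4.24 to 4.70 with scramble ectosomes and 4.25 to 4.28 in controls. Without LILRB4 it was 2.51 to 3.44 with PKM2-knockdown ectosomes, 0.774 to 0.995 with scramble ectosomes and 0.151 to 0.273 in controls. Few genes carried this ratio. The LILRA sum in controls (3.02 to 3.46 CPM per kb) was mostly LILRA2 (2.93), which had 0.300 with PKM2-knockdown ectosomes. LILRA6 and LILRA5 were instead higher with both kinds of ectosomes, and LILRA1 was lower only with scramble ectosomes. LILRB1 and LILRB2 (1.94 and 1.48) made up most of the other side with PKM2-knockdown ectosomes. The sum of the 8 genes was 75.98 to 82.2 CPM with PKM2-knockdown ectosomes, 76.8 to 79.6 CPM with scramble ectosomes and 96.3 to 108.8 CPM in controls, so that the groups with ectosomes overlapped and both lay below the controls. LILRB4 alone had means of 56.6 CPM with PKM2-knockdown ectosomes, 60.3 CPM with scramble ectosomes and 83.2 CPM in controls. The other 7 genes together gave 20.96 to 24.1 CPM with PKM2-knockdown ectosomes, 16.9 to 19.3 CPM with scramble ectosomes and 17.6 to 20.8 CPM in controls. These sums and ratios over chosen genes are descriptions with no test.

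Of the 8 genes 7 passed the filter, LILRA5 being too low. With scramble ectosomes against control all 7 passed the threshold (p under 0.05 after Benjamini-Hochberg adjustment across the whole table), LILRB1, LILRB2, LILRB3 and LILRA6 being higher and LILRB4, LILRA1 and LILRA2 lower. As 67.8% of all rows passed there, 34.6% higher and 33.2% lower, the count alone says little about the family. With PKM2-knockdown against scramble ectosomes 3 were higher (LILRB1, LILRB2, LILRA1) and 3 lower (LILRB3, LILRA2, LILRA6), beside 61.6% of all rows (31.4% higher, 30.3% lower). With PKM2-knockdown ectosomes against control 4 were higher (LILRB1, LILRB2, LILRB3, LILRA6) and 2 lower (LILRB4, LILRA2), beside 53.7% of all rows (27.0% higher, 26.7% lower). The groups of all 7 did not overlap with scramble ectosomes against control, where 71.3% of all rows did not, and those of 6 did not in each of the other comparisons (74.5% with PKM2-knockdown against scramble ectosomes and 60.5% with PKM2-knockdown ectosomes against control). The median log2 fold change over the 7 genes was 0.81 with scramble ectosomes against control, -0.09 with PKM2-knockdown against scramble ectosomes and 1.59 with PKM2-knockdown ectosomes against control, where that of all rows was -0.01, 0.03 and -0.01. The comparisons with control share the same control libraries.

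**Figure D2:**
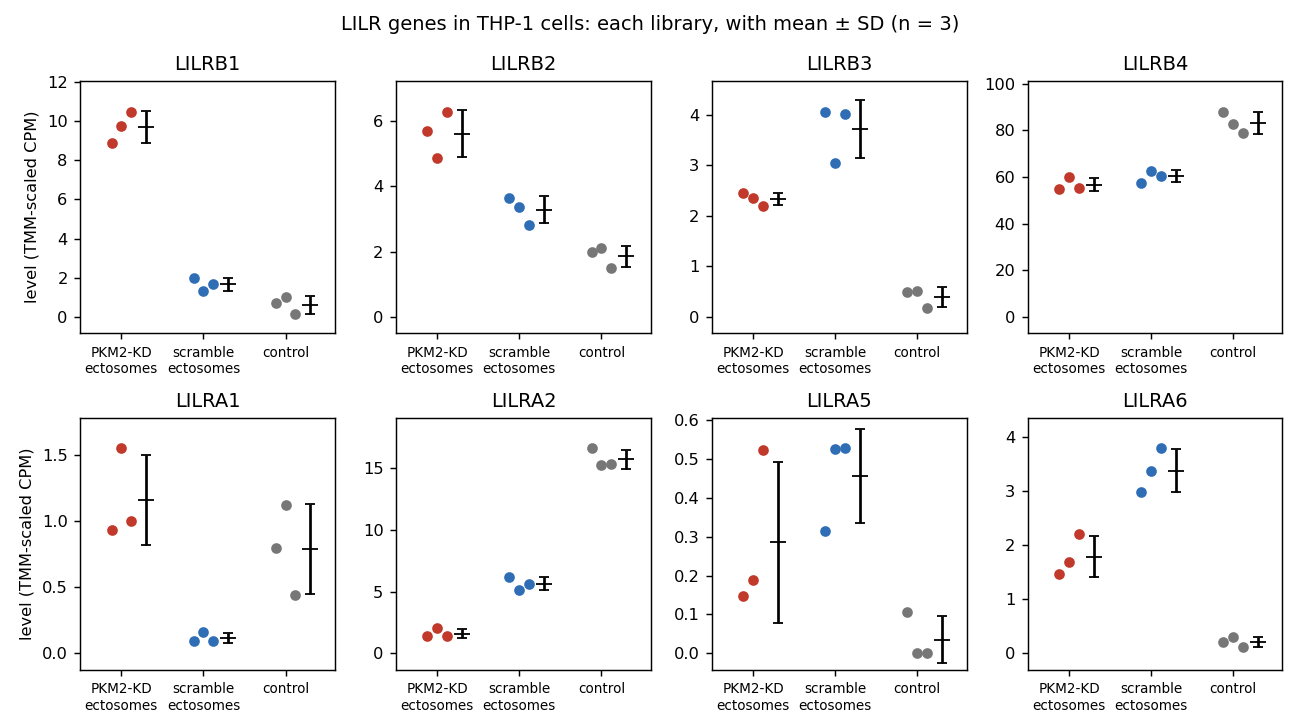
Level in TMM-scaled CPM (y axis, a separate scale for each gene) of the 8 LILR genes in each library, with the mean and SD of each group of 3 beside the points. LILRB1 and LILRB2 are highest with PKM2-knockdown ectosomes, LILRB3 and LILRA6 with scramble ectosomes, and LILRA2 and LILRB4 in controls, while LILRA1 is lowest with scramble ectosomes.

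LILRB1 encodes an inhibitory receptor that binds a broad range of HLA class I molecules. It had 8.88, 9.75 and 10.49 CPM with PKM2-knockdown ectosomes, 1.99, 1.32 and 1.68 CPM with scramble ectosomes, and 0.693, 0.990 and 0.110 CPM in controls. The 3 groups did not overlap, and control replicate 3, with 2 reads, was the lowest library. With PKM2-knockdown ectosomes LILRB1 rose 5.80-fold over scramble ectosomes (adjusted p = 6.64e-05, log2 fold change 2.54 with SE 0.33) and 15.5-fold over control (adjusted p = 1.06e-05, log2 fold change 3.95 with SE 0.38). With scramble ectosomes it rose 2.66-fold over control (adjusted p = 0.0125, log2 fold change 1.41 with SE 0.43). Without control replicate 2 the rises over control became 23.6-fold with PKM2-knockdown ectosomes and 4.06-fold with scramble ectosomes. Other alternatives made them smaller. Over all of them the log2 fold change with scramble ectosomes ran from 0.964, without control replicate 3, to 2.023. Its edgeR adjusted p reached 0.0487 with only the groups compared. With PKM2-knockdown ectosomes against control the log2 fold change ran from 3.495 to 4.559. Of its exon bases 7.1% overlap LILRB1-AS1 on the other strand, and without a stated strand setting reads of the pair cannot be told apart.

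LILRB2, an inhibitory receptor of HLA class I molecules including HLA-G, followed the same order with smaller steps. It had 5.69, 4.88 and 6.29 CPM with PKM2-knockdown ectosomes, 3.66, 3.37 and 2.83 CPM with scramble ectosomes, and 1.97, 2.11 and 1.49 CPM in controls. Again no library of 1 group reached into another. The rise with PKM2-knockdown ectosomes was 1.71-fold over scramble ectosomes (adjusted p = 0.00378, log2 fold change 0.77 with SE 0.18) and 3.00-fold over control (adjusted p = 6.09e-05), and that with scramble ectosomes over control was 1.76-fold (adjusted p = 0.00406).

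LILRB3, an inhibitory receptor of myeloid cells, was highest with scramble ectosomes. It had 2.45, 2.34 and 2.20 CPM with PKM2-knockdown ectosomes, 4.06, 3.05 and 4.03 CPM with scramble ectosomes, and 0.480, 0.517 and 0.166 CPM in controls. The 3 groups did not overlap. It rose 5.82-fold over control with PKM2-knockdown ectosomes (adjusted p = 6.76e-05, log2 fold change 2.54 with SE 0.32) and 9.26-fold with scramble ectosomes (adjusted p = 4.38e-06, log2 fold change 3.21 with SE 0.30). Between the kinds of ectosomes it was 1.59-fold lower with PKM2-knockdown (adjusted p = 0.0306, log2 fold change -0.67 with SE 0.24). That call did not hold in 7 of 16 alternatives: adjusted p was 0.1 without scramble replicate 1, 0.0972 without scramble replicate 3, and 0.0648, 0.079 and 0.0881 without PKM2-knockdown replicate 1, 2 and 3, and the range over all was 0.0022 to 0.106.

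LILRB4, an inhibitory receptor known as a surface marker of monocytic leukaemia, fell with both kinds of ectosomes. It had 55.0, 59.8 and 55.1 CPM with PKM2-knockdown ectosomes, 57.5, 62.7 and 60.6 CPM with scramble ectosomes, and 88.0, 82.8 and 78.7 CPM in controls. All control libraries lay above all others, while the groups given ectosomes overlapped. The fall was 1.47-fold with PKM2-knockdown ectosomes (adjusted p = 0.000126, log2 fold change -0.55 with SE 0.08) and 1.38-fold with scramble ectosomes (adjusted p = 0.000249, log2 fold change -0.47 with SE 0.08). Between the kinds of ectosomes the log2 fold change was -0.09 (SE 0.08, adjusted p = 0.325), and it changed sign to 0.085 when libraries were scaled by their totals alone.

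LILRA2, an activating receptor that recognises immunoglobulins cut by microbial proteases, fell with both kinds of ectosomes. It had 1.37, 2.02 and 1.42 CPM with PKM2-knockdown ectosomes, 6.18, 5.11 and 5.61 CPM with scramble ectosomes, and 16.6, 15.2 and 15.3 CPM in controls. The 3 groups did not overlap. Its level fell 9.72-fold with PKM2-knockdown ectosomes against control (adjusted p = 1.56e-07, log2 fold change -3.28 with SE 0.17) and 2.78-fold with scramble ectosomes against control (adjusted p = 6.14e-06, log2 fold change -1.47 with SE 0.15). With PKM2-knockdown ectosomes it was also 3.50-fold lower than with scramble ectosomes (adjusted p = 7.65e-06). Its share of the summed level of the 8 genes per kb was 2.07% with PKM2-knockdown ectosomes, 7.37% with scramble ectosomes and 17.2% in controls.

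LILRA6, an activating receptor with an extracellular part like that of LILRB3, moved as LILRB3 did. It had 1.47, 1.69 and 2.20 CPM with PKM2-knockdown ectosomes, 2.98, 3.37 and 3.79 CPM with scramble ectosomes, and 0.213, 0.301 and 0.110 CPM in controls, where it had 13 reads over the 3 libraries. The 3 groups did not overlap. The rise over control was 8.09-fold with PKM2-knockdown ectosomes (adjusted p = 3.58e-05) and 15.3-fold with scramble ectosomes (adjusted p = 1.43e-06, log2 fold change 3.94 with SE 0.32). With PKM2-knockdown ectosomes it was 1.89-fold lower than with scramble ectosomes (adjusted p = 0.00588, log2 fold change -0.92 with SE 0.24). When the reads of LILRA6 and LILRB3 were summed into 1 row, the log2 fold changes were 2.74 with PKM2-knockdown ectosomes against control, -0.78 with PKM2-knockdown against scramble ectosomes and 3.53 with scramble ectosomes against control, each past the threshold (adjusted p up to 0.00743).

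LILRA1, an activating receptor that binds HLA class I molecules, was the member that scramble and PKM2-knockdown ectosomes set furthest apart. It had 0.933, 1.55 and 0.996 CPM with PKM2-knockdown ectosomes (71 reads), 0.0903, 0.158 and 0.0959 CPM with scramble ectosomes (7 reads), and 0.799, 1.12 and 0.442 CPM in controls (49 reads). Every scramble-ectosome library was below all others, and the remaining groups overlapped. It was 9.81-fold higher with PKM2-knockdown than with scramble ectosomes (adjusted p = 0.000181, log2 fold change 3.29 with SE 0.49) and 6.78-fold lower with scramble ectosomes than in controls (adjusted p = 0.000696, log2 fold change -2.76 with SE 0.52). PKM2-knockdown ectosomes against control gave a log2 fold change of 0.53 (SE 0.35, adjusted p = 0.228).

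LILRA5, an activating receptor of monocytes, was near the limit of detection. Reads numbered 3, 4 and 10 with PKM2-knockdown ectosomes, 7, 10 and 11 with scramble ectosomes, and 2, 0 and 0 in controls. All libraries with ectosomes held more reads than the controls, and the groups with ectosomes overlapped. The ratio of pooled CPM to control was 8.41 with PKM2-knockdown ectosomes (exact 95% interval 2 to 75) and 13.6 with scramble ectosomes (3.42 to 118). Only counting error enters these intervals, and reads that share a PCR origin are not separate molecules. Tested with no filter on low counts, LILRA5 had an adjusted p of 0.0352 with PKM2-knockdown ectosomes against control and 0.00516 with scramble ectosomes against control, and of 0.444 with PKM2-knockdown against scramble ectosomes.

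**Figure D3:**
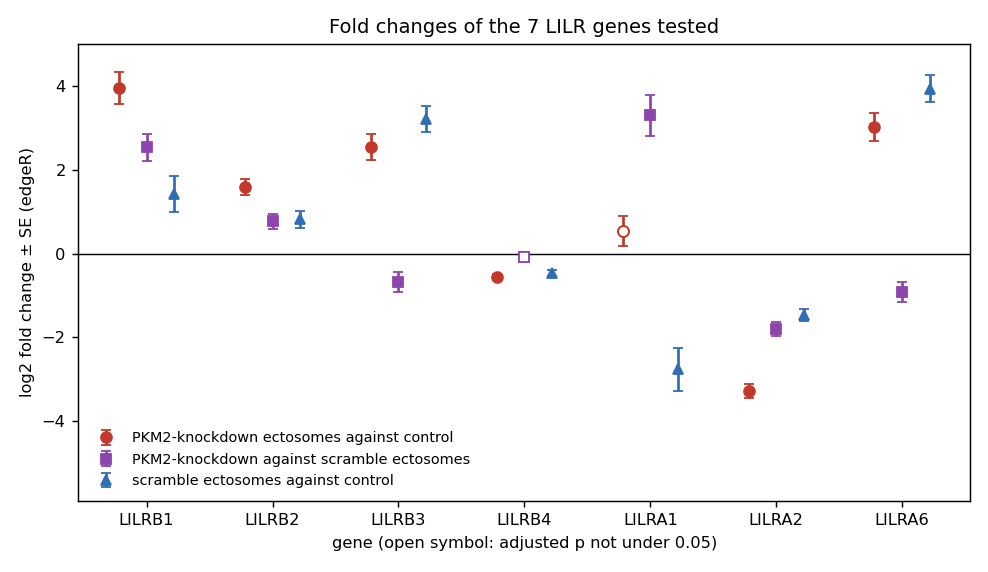
Log2 fold change with its SE (y axis) of the 7 LILR genes tested, for PKM2-knockdown ectosomes against control (red circles), PKM2-knockdown against scramble ectosomes (purple squares) and scramble ectosomes against control (blue triangles), with open symbols where adjusted p was not under 0.05. LILRB1 and LILRB2 lie above 0 in each comparison and LILRA2 below 0 in each, while LILRA1 was 3.29 with PKM2-knockdown against scramble ectosomes and -2.76 with scramble ectosomes against control.

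Among the further LILR rows, LILRA4, a receptor known from plasmacytoid dendritic cells, had 12, 13 and 7 reads with PKM2-knockdown ectosomes, 3, 1 and 6 with scramble ectosomes and 20, 34 and 13 in controls. It fell 6.61-fold with scramble ectosomes against control (adjusted p = 0.000524, log2 fold change -2.72 with SE 0.49), and 10.6-fold without scramble replicate 3. Of the other plasmacytoid dendritic cell markers, IL3RA and TCF4 rose in that comparison (log2 fold change 1.04 and 0.79, adjusted p = 4.68e-05 and 0.000714), and CLEC4C was not analysed here. The 3 markers with a row summed to 43.8 to 47.2 CPM with PKM2-knockdown ectosomes, 49.1 to 54.1 CPM with scramble ectosomes and 21 to 30.6 CPM in controls. The pseudogene LILRP1 fell 5.69-fold with scramble ectosomes against control (adjusted p = 0.00364), and 3.55-fold without control replicate 3. LILRB5 had 3 reads in all with PKM2-knockdown ectosomes, 4 with scramble ectosomes and 0 in controls, and was not tested.

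The counts of the gene lists that follow stand beside the shares of all rows called, 34.6% higher and 33.2% lower with scramble ectosomes against control, 31.4% and 30.3% with PKM2-knockdown against scramble ectosomes, and 27.0% and 26.7% with PKM2-knockdown ectosomes against control. Of 12 signalling partners 4 were higher and 5 lower with scramble ectosomes against control, with a median log2 fold change of -0.04, and 8 were higher and 1 lower with PKM2-knockdown against scramble ectosomes, with a median of 0.49. Against control 4 were higher and 1 lower with PKM2-knockdown ectosomes. PTPN6, the phosphatase SHP-1, was 2.37-fold higher with PKM2-knockdown than with scramble ectosomes (466 ± 18.8 and 197 ± 8.74 CPM, adjusted p = 0.000194). PTPN11, the phosphatase SHP-2, was 1.54-fold lower (164 ± 7.10 and 252 ± 3.64 CPM, adjusted p = 2.56e-05). INPP5D, a lipid phosphatase, was 2.21-fold higher (adjusted p = 5.83e-05). FGR, a Src-family kinase of myeloid cells, stood at 77.95 ± 3.53 CPM with PKM2-knockdown ectosomes, 55.7 ± 1.12 CPM with scramble ectosomes and 5.06 ± 1.97 CPM in controls, 15.2-fold and 10.9-fold above control (adjusted p = 2.11e-07 and 1.56e-07).

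Of 15 genes of reported LILR ligands 12 were tested. With scramble ectosomes against control 9 rose and 2 fell (median log2 fold change 1.46), with PKM2-knockdown against scramble ectosomes 6 were higher and 5 lower (median 0.37), and with PKM2-knockdown ectosomes against control 11 rose and 0 fell (median 0.77). HLA-C, a ligand of several LILRs, had 137 ± 11.7 CPM with PKM2-knockdown ectosomes and 300 ± 21.7 CPM with scramble ectosomes (2.18-fold lower, adjusted p = 2.16e-06), where controls had 87.4 ± 5.04 CPM. Between the kinds of ectosomes its order was thus the reverse of that of LILRB1 and LILRB2, though reads of HLA class I genes can be split among near-identical copies. S100A9, a calcium-binding protein reported as a ligand of LILRB1, had 245 ± 60.5 CPM with PKM2-knockdown ectosomes, 10.8 ± 1.25 CPM with scramble ectosomes and 132.5 ± 9 CPM in controls. FN1, encoding fibronectin, a reported LILRB4 ligand, stood at 39.1 ± 2.85 CPM with PKM2-knockdown ectosomes, 8.09 ± 1.22 CPM with scramble ectosomes and 2.36 ± 0.339 CPM in controls. APOE, another reported LILRB4 ligand, was 5.21-fold above control with PKM2-knockdown ectosomes (10.6 ± 2.52 and 2.03 ± 0.208 CPM, adjusted p = 7.69e-06).

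A pathway of LILRB4, SHP-2, NF-kB and the urokinase receptor has been described in monocytic leukaemia cells. Of its 5 further genes 4 were tested. All 4 were higher with scramble ectosomes against control, while LILRB4 was lower, 0 were higher and 3 lower with PKM2-knockdown against scramble ectosomes, and 3 were higher and 1 lower with PKM2-knockdown ectosomes against control. Without control replicate 3, 1 was higher with PKM2-knockdown against scramble ectosomes. PLAUR, the urokinase receptor, had 432 ± 9.16 CPM with PKM2-knockdown ectosomes, 340 ± 14.9 CPM with scramble ectosomes and 38.9 ± 18.5 CPM in controls (11.1-fold and 8.71-fold above control, adjusted p = 6.90e-06 and 5.73e-06).

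Of 34 neighbours in the leukocyte receptor complex that are no LILR genes 26 were tested, of which 7 were higher and 9 lower with scramble ectosomes against control, 10 higher and 6 lower with PKM2-knockdown against scramble ectosomes, and 8 higher and 5 lower with PKM2-knockdown ectosomes against control. With scramble ectosomes against control these counts are close to the shares of all rows. Without control replicate 3, 11 were higher and 10 lower with PKM2-knockdown against scramble ectosomes. FCAR, the receptor for IgA, had 39.9 ± 1.18 CPM with scramble ectosomes and 1.47 ± 0.978 CPM in controls (26.7-fold higher, adjusted p = 3.13e-07). LAIR1, an inhibitory collagen receptor, was 2.26-fold lower with PKM2-knockdown ectosomes than in controls (142 ± 3.74 and 321 ± 56.1 CPM, adjusted p = 1.32e-05).

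Over the 9 libraries and 11084 genes with a mean of at least 5 CPM, the genes whose log2 level followed LILRB4 most closely were TRAM2, CENPV and PGM2 (Pearson r 0.987, 0.984 and 0.983). Those closest to LILRA2 were the pseudogene RPS2P46, TMEM164 and SPNS3 (r 0.989, 0.988 and 0.987). These coefficients rest on 9 libraries in 3 groups with the same library scaling, and are a description. The other members were below that mean.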

How the data were processed

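RNA of THP-1 cells was sequenced in 9 libraries made from 3 µg RNA each with the NEBNext Ultra kit on an Illumina HiSeq, per the labels' protocols. The authors deposited 1 table of raw counts per gene symbol. Per the submitters' processing notes, HISAT2 2.0.5, featureCounts 1.5.0-p3 and GRCh38 were used. Annotation, strandedness and filters were not given in the sources used here. Every row total was at least 4 counts, and repeated symbols (355 rows) were kept as rows.

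The counts were tested with edgeR 4.0.16 (R 4.3.3). Rows were filtered with filterByExpr by group, scaled by TMM and fitted over all 9 libraries by quasi-likelihood with group as the only term (6 residual degrees of freedom, common biological coefficient of variation 13.3%). Tests were two-sided, with Benjamini-Hochberg adjustment over 18437 rows. The code was run on counts simulated from the fitted model, with a small part of the rows changed in the scramble group. In these data most rows were called and control replicate 3 stood apart, so that run does not test the scaling or the calls here. Each SE is the log2 fold change divided by the root of its F statistic. Levels are TMM-scaled CPM. Coordinates and exon lengths are from GENCODE 29. Alternatives were other scalings, no filter, DESeq2 1.42.0, fewer libraries, a replicate block and a summed LILRA6 and LILRB3 row.

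The members and the gene lists were chosen with earlier results of these data known. Named genes are all members, the further LILR rows, examples from the 4 smallest p of each list in a comparison, and for members with a mean of at least 5 CPM the 3 most correlated genes (pseudocount 0.5 CPM).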

Additional observations from a re-analysis of the deposited data

Results flagged for a closer look

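The effects of the ectosomes on 6 of the 7 tested LILR genes differed between PKM2-knockdown and scramble ectosomes by the edgeR test of the difference itself. This is the comparison of PKM2-knockdown against scramble ectosomes reported above, not a further test. On the log2 scale, PKM2-knockdown minus scramble, the difference was 3.29 for LILRA1, 2.54 for LILRB1, 0.77 for LILRB2, -0.67 for LILRB3, -0.92 for LILRA6 and -1.81 for LILRA2. The LILRB3 call did not hold in 7 of 16 alternatives. For LILRA1 scramble ectosomes gave a fall and PKM2-knockdown ectosomes no call against control. Of all rows 61.6% passed the same test.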

How the results depend on the processing

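The counts of LILR genes and of all rows past the threshold stayed within 1.5 times of the values reported under every alternative run. The LILR counts are so small that this margin admits the loss of a call, as for LILRB3 below. Over the 7 tested members and their alternatives 313 results kept direction and side of the threshold. LILRB3 with PKM2-knockdown against scramble ectosomes lost its call in 7, 5 of them with 1 library left out, 1 with library totals alone (adjusted p = 0.106) and 1 with a replicate block (adjusted p = 0.0515). The cause was not tested. Of the results of other named genes 1285 kept theirs, 17 lost their call and 2, both PLAUR with PKM2-knockdown against scramble ectosomes, gained one. The sign changed for LILRB4 in that comparison with library totals alone (log2 fold change 0.085) and for the pseudogene LILRP1 without PKM2-knockdown replicate 1 (range -0.25 to 0.68 with 1 library left out), neither being called. Library totals alone moved the median log2 fold change of all rows to -0.21 with scramble ectosomes against control and 0.20 with PKM2-knockdown against scramble ectosomes, and the share of calls that were higher to 40.2% and 61.9%, where TMM gave 51.0% and 50.9%.

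No pairing by replicate number was seen: deviations of same-numbered libraries correlated between -0.134 and 0.095. With few libraries per group and control replicate 3 standing apart, a pairing could have been missed. With the replicate number as a block, 12179 rows passed with scramble ectosomes against control, 11035 with PKM2-knockdown against scramble ectosomes and 9401 with PKM2-knockdown ectosomes against control (12492, 11365 and 9904 without it), and no other call of a member changed. Leaving out control replicate 3, an alternative chosen for the lists after seeing the data, left the member counts unchanged. Depth limits LILRA5 and, in scramble-ectosome cells, LILRA1, each with few reads. It also limits the rises over control of LILRA6, LILRB3 and LILRB1, which had 13, 24 and 38 reads in all in controls.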

Other observations

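Other receptors of the myeloid surface were tested in the same fit. Of 15 tested inhibitory receptors that are no LILRs, 6 rose and 6 fell with scramble ectosomes against control, 9 were higher and 1 lower with PKM2-knockdown against scramble ectosomes (11 and 2 without control replicate 3), and 9 rose and 3 fell with PKM2-knockdown ectosomes against control. SIGLEC7, a sialic acid receptor, stood at 6.57 ± 0.671 CPM with PKM2-knockdown ectosomes, 0.648 ± 0.190 CPM with scramble ectosomes and 0.188 ± 0.0508 CPM in controls. FCGR2B, the inhibitory Fc gamma receptor, had 10.3 ± 1.28 CPM with PKM2-knockdown ectosomes, 0.179 ± 0.100 CPM with scramble ectosomes and 0.336 ± 0.243 CPM in controls. Its near-identical copies make its count uncertain.

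Of 13 tested activating receptors and adaptors, 7 rose and 3 fell with scramble ectosomes against control, 6 were higher and 3 lower with PKM2-knockdown against scramble ectosomes, and 8 rose and 1 fell with PKM2-knockdown ectosomes against control. TREM1, an amplifier of inflammatory signals, was 12.6-fold above control with PKM2-knockdown ectosomes and 31.2-fold with scramble ectosomes (adjusted p = 1.93e-06 and 6.07e-08). Of 13 myeloid transcription factors 7 rose and 6 fell with scramble ectosomes against control, 5 were higher and 5 lower with PKM2-knockdown against scramble ectosomes, and 4 rose and 5 fell with PKM2-knockdown ectosomes against control. IRF8, a factor of monocyte development, had 178 ± 18.0 CPM with PKM2-knockdown ectosomes, 83.0 ± 1.25 CPM with scramble ectosomes and 891 ± 259 CPM in controls.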
